A study of Homo sapiens with 6 samples.

Results

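The 40 genes described here encode the WNT pathway: ligands, receptors, co-receptors, secreted inhibitors, the beta-catenin destruction complex and the TCF and LEF transcription factors. They were chosen by gene symbol, and every probe set annotated to one of them was taken. Of the 40 genes, 37 had a probe set by this rule, out of 21357 annotated gene symbols in all. Of these, 36 had at least 1 probe set annotated to no other gene, 91 such probe sets in all. FZD8 had 3 probe sets, which the annotation assigns jointly to the microRNA gene MIR4683. Levels of WNT3A, PORCN and TCF7 were not analysed here. MCF10A is a human cell line of breast epithelium that does not form tumours. It was transfected with a miR-221/222 mimic (3 biological replicates, called mimic) or with a control microRNA (3 biological replicates, called control), and total RNA was hybridised to 1 single-colour array per replicate. No other agent or genetic change is named for either group, and the labels give neither the amount of mimic, nor how long the cells were kept after it, nor what the control microRNA is.

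WNT proteins are secreted, lipid-modified ligands that bind Frizzled receptors on the cell surface. With the co-receptors LRP5 or LRP6 they stop the destruction complex (AXIN, APC and GSK3B) from marking beta-catenin for degradation, and beta-catenin then acts with TCF and LEF factors on target genes. Another arm, typified by WNT5A and the receptors ROR1 and ROR2, signals without beta-catenin and bears on cell polarity and movement. Dickkopf (DKK) and secreted Frizzled-related (SFRP) proteins act outside the cell as inhibitors. In the mammary gland the pathway is known for its part in branching and in the upkeep of basal progenitor cells. MicroRNAs lower messenger RNAs that pair with their seed, bases 2 to 8 from the 5′ end, and DKK2 and SFRP2 have been reported as targets of miR-221 and miR-222.

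The mature sequences of the microRNAs are shown because they share their seed. The labels do not say which arm the mimic carries, and the 3p arms in RefSeq (build GRCh38.p14) are printed, with the seed in capitals. Both lie on the minus strand of chromosome X, at chrX:45746180-45746202 for miR-221-3p and chrX:45747036-45747056 for miR-222-3p.
hsa-miR-221-3p: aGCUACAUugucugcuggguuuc
hsa-miR-222-3p: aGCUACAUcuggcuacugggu
The first 8 bases are identical, and the seed GCUACAU lies within them. Sites for this seed in the pathway genes were not searched here.

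The arrays were alike in distribution, with medians between 7.59 and 7.66 on the log2 scale, and within either group any pair of arrays had a correlation of at least 0.995 across probe sets. All 9 measured basal and epithelial markers (KRT5, KRT14, CDH3, ITGB4, CDH1, EPCAM, KRT18, KRT8 and EGFR) had high signals, with means over all arrays of 9.43 to 12.64. All 9 fell in the mimic arrays, where their mean level lay between 10.96 and 11.07, against 12.09 to 12.17 in the control arrays. Of the markers of other cell types, 1 of 8 fibroblast markers rose (DCN) and 2 fell (FAP and LUM), 1 of 6 endothelial markers fell (KDR), and of 4 blood cell markers 1 rose (ITGAM) and 1 fell (CD14). DCN, the brightest of these, had a mean of 13.72 in the mimic, against 12.06 in the control, so strong signal of a gene known from fibroblasts was present in both groups. The mean level of the fibroblast list was 8.47 to 8.58 in the mimic and 8.62 to 8.67 in the control arrays, that of the endothelial list 7.71 to 7.83 in the mimic and 7.92 to 7.93 in the control, and that of the blood cell list 8.06 to 8.14 in the mimic and 8.26 to 8.28 in the control. The 3′ minus 5′ signal of the GAPDH control probe sets, a sign of RNA integrity, was 0.024 to 0.042 in the mimic, against -0.046 to 0.023 in the control (exact permutation test, two-sided, p = 0.1, the smallest that 3 arrays against 3 can give). That of ACTB was 0.33 to 0.39 in the mimic and 0.29 to 0.36 in the control (exact permutation p = 0.3). The part of these marker and integrity values in the results below was not tested.

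The comparison asked which WNT pathway transcripts the mimic cells hold at another level than the control cells. The value after ± beside a mean is the SD over the 3 arrays of the group (n = 3). SFRP1, a secreted inhibitor, fell most of the 36 genes and was 3.64-fold higher in the control. The ligand WNT5A, its receptor ROR1, the co-receptors LRP5 and LRP6 and the transcription factor LEF1 fell as well. The receptors FZD10 and FZD7 and the secreted inhibitor DKK1 rose. Each gene was read at its brightest probe set, by the mean of the 6 arrays, and it was called at a limma adjusted p under 0.05 over all 54613 probe sets tested. Of the 36 genes, 3 rose (8.33%) and 12 fell (33.3%), while of all 19775 genes 14.1% rose and 16.3% fell, 30.4% in either direction. The share of pathway genes that fell was above that of all genes and the share that rose below it, without a test of the difference. FZD8, whose probe sets rose but are annotated jointly with MIR4683, is not among the 36 genes. Counting it would raise the share that rose. The list was chosen with earlier results of these data known, so no shift of the pathway is concluded from these shares. The counts by role below come from short lists and are to be read beside the shares of all genes. In bulk RNA, fewer cells that carry a transcript and less of it in each cell cannot be told apart. The median log2 difference, mimic minus control, was -0.05 for the 36 genes and 0.03 for all genes. At least 2-fold lower were 2 of the 36, SFRP1 and WNT5A, against 2.09% of all genes, and 0 were at least 2-fold higher, against 0.961% of all genes. The groups did not overlap for 22 of the 36 genes (61.1%), and did not overlap for 45.6% of all genes. SDs between replicates ran from 0.0089 to 0.24 over the 36 genes.

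**Figure D1:**
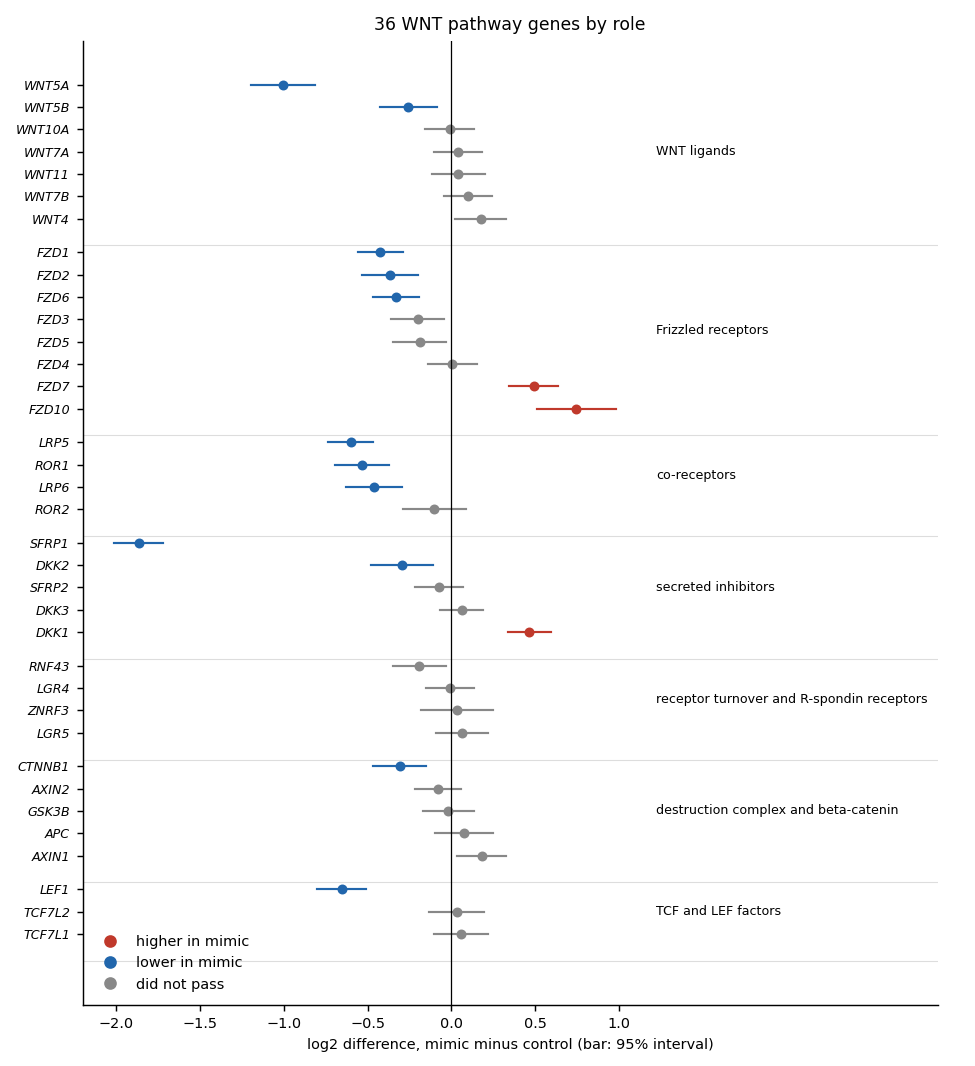
Log2 difference, mimic minus control, of each of the 36 genes at its brightest probe set (points) with its 95% interval from limma (lines), grouped by role; colour marks the 3 genes that rose, the 12 that fell and the 21 that did not pass. SFRP1 lies farthest to the left at -1.86 and FZD10 farthest to the right at 0.74.

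Of the 7 measured ligand genes, 2 fell and 0 rose. WNT5A is the main ligand of the beta-catenin-independent arm. Its probe set 205990_s_at read 8.25, 8.47 and 8.57 in the mimic arrays and 9.54, 9.38 and 9.40 in the control arrays. Every mimic array lay below every control array. The log2 difference was -1.01 ± 0.09 (SE), 2.01-fold higher in the control (limma adjusted p = 6.86e-06). The other WNT5A probe set, 213425_at, fell by 0.92 on the log2 scale (limma adjusted p = 9.46e-06). WNT5B, a close relative of WNT5A, had a mean of 6.90 ± 0.02 in the mimic, against 7.16 ± 0.14 in the control, a log2 difference of -0.26 ± 0.08 (SE; limma adjusted p = 0.0301). Both WNT5B means lay below the array medians. The WNT5B call was lost when all 3 of its probe sets were averaged (adjusted p = 0.252). It was also lost when any 1 array other than control replicate 1 was left out (adjusted p from 0.0582 to 0.125). The other 5 ligand genes, WNT4, WNT7A, WNT7B, WNT10A and WNT11, had log2 differences from -0.01 for WNT10A to 0.18 for WNT4 and did not pass. WNT4, a ligand of mammary side branching, rose at another of its 3 probe sets, 208606_s_at, by 0.25 on the log2 scale (limma adjusted p = 0.034). At the probe set used it passed as higher with array weights (limma adjusted p = 0.0326).

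The 8 measured Frizzled receptor genes moved both ways: 2 rose and 3 fell. FZD10 read 7.64, 7.71 and 7.80 in the mimic arrays, against 6.80, 6.87 and 7.25 in the control arrays. No mimic array lay as low as a control array, although control replicate 3 stood above the other control arrays. The log2 difference was 0.74 ± 0.11 (SE), 1.67-fold higher in the mimic (limma adjusted p = 0.000333). FZD10 was read at its only probe set. The control mean of 6.97 lay below the array medians, so it is not known whether FZD10 was expressed in the control. FZD7, a receptor expressed in basal mammary cells, read 8.83, 8.98 and 8.83 in the mimic and 8.34, 8.39 and 8.43 in the control arrays, again without overlap. It rose by 0.49 ± 0.07 (SE) on the log2 scale (limma adjusted p = 0.000221), and by 0.62 at its other probe set, 203706_s_at (adjusted p = 0.0002). FZD7 and DKK1 are given by array to complete the count of 3 that rose, a choice made after their values were seen.

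FZD1, FZD2 and FZD6 fell, with mimic arrays below control arrays for each. FZD1 had a mean of 7.83 ± 0.03 in the mimic, against 8.25 ± 0.05 in the control, FZD2 had a mean of 8.84 ± 0.14 in the mimic, against 9.20 ± 0.03 in the control, and FZD6 had a mean of 12.01 ± 0.07 in the mimic, against 12.34 ± 0.01 in the control. The log2 differences were -0.43 for FZD1, -0.36 for FZD2 and -0.33 for FZD6, with limma adjusted p-values of 0.000336, 0.00411 and 0.00208. FZD1 fell at 1 of its 3 probe sets and FZD2 at both of its probe sets. FZD3, FZD4 and FZD5 did not pass, with log2 differences of -0.20, 0.01 and -0.19. FZD3, a receptor of planar polarity signalling, fell at 2 of its other 3 probe sets, by 0.24 and 0.27. At the probe set used it passed as lower when control replicate 2 was left out (limma adjusted p = 0.0249). FZD3 also passed with arrays centred on their medians (limma adjusted p = 0.03) and with array weights (0.0151). The same held without the dim probe sets (0.0373) and with all its probe sets averaged (0.0248). Under the other alternatives FZD3 did not pass. FZD5 passed as lower with array weights (limma adjusted p = 0.025). The 3 probe sets annotated jointly to FZD8 and MIR4683 rose by 0.54, 0.86 and 0.63 on the log2 scale (limma adjusted p = 0.00111, 6.72e-05 and 4.26e-05). The brightest of them had a mean of 10.38 ± 0.08 in the mimic, against 9.76 ± 0.07 in the control, and none is counted for either gene.

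Of the 4 co-receptor genes, 3 fell and 0 rose, while of all genes 16.3% fell and 14.1% rose. LRP5, a partner of Frizzled for WNT binding, read 8.69, 8.75 and 8.72 in the mimic arrays, against 9.28, 9.31 and 9.38 in the control arrays. All mimic arrays lay below all control arrays, and the log2 difference was -0.60 ± 0.06 (SE), 1.52-fold higher in the control (limma adjusted p = 2.38e-05). At the other LRP5 probe set, 229591_at, the difference was 0.03 and did not pass. LRP6, the relative of LRP5 with the same role, had a mean of 9.23 ± 0.13 in the mimic, against 9.69 ± 0.06 in the control, a log2 difference of -0.46 (limma adjusted p = 0.000832) at 1 of its 3 probe sets.

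ROR1, a receptor tyrosine kinase-like protein that binds WNT5A, read 8.10, 8.16 and 8.29 in the mimic and 8.82, 8.66 and 8.67 in the control arrays at 205805_s_at. The groups did not overlap, and the log2 difference was -0.53 ± 0.07 (SE; limma adjusted p = 0.000256). At 232060_at ROR1 fell further, by 1.19 ± 0.11 (SE), to 7.27, 7.57 and 7.81 in the mimic arrays, against 8.74, 8.71 and 8.79 in the control arrays (adjusted p = 1.42e-05). The ROR1 probe set 211057_at had a difference of 0.07 and did not pass. ROR2, the relative of ROR1, had a mean of 5.35 ± 0.11 in the mimic, against 5.45 ± 0.14 in the control, below the array medians, and did not pass (log2 difference -0.10). Thus WNT5A and its receptor gene ROR1 were each lower at 2 probe sets.

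The 5 secreted inhibitor genes included both the largest fall and a rise. SFRP1 encodes a protein that binds WNT ligands outside the cell. Its probe set 202037_s_at read 9.26, 9.44 and 9.41 in the mimic arrays and 11.21, 11.23 and 11.25 in the control arrays. The gap between the groups was far wider than the spread within either. The log2 difference was -1.86 ± 0.07 (SE), 3.64-fold higher in the control (limma adjusted p = 1.05e-08). The probe sets 202036_s_at and 202035_s_at had log2 differences of -1.94 and -2.14 (limma adjusted p = 2.3e-08 and 3.49e-08). The dimmest of the 4 SFRP1 probe sets, 228413_s_at, had a log2 difference of -0.16 and did not pass.

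DKK1, which binds LRP5 and LRP6 and blocks their use by WNT, read 14.48, 14.44 and 14.46 in the mimic arrays and 13.97, 14.01 and 14.00 in the control arrays. The groups did not overlap and each varied by an SD of 0.02. DKK1 rose by 0.46 ± 0.06 (SE) on the log2 scale, 1.38-fold higher in the mimic (limma adjusted p = 0.000116). The highest value on any array was 14.95, and whether signals this bright are compressed was not tested.

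DKK2, a Dickkopf relative and a reported target of these microRNAs, read 6.07, 6.03 and 5.77 in the mimic arrays and 6.30, 6.27 and 6.19 in the control arrays at 224199_at. The groups did not overlap, and the log2 difference was -0.29 ± 0.08 (SE; limma adjusted p = 0.0238). The call for DKK2 did not survive leaving out mimic replicate 3 (adjusted p = 0.0664), control replicate 1 (0.0925) or control replicate 2 (0.0748), nor averaging both probe sets (0.0924). At the other DKK2 probe set, 219908_at, the difference was 0.01 (95% interval -0.12 to 0.15). Both lie below the array medians, and without detection calls it is not known whether DKK2 was expressed. SFRP2, the other reported target, read 7.52, 7.39 and 7.35 in the mimic arrays, against 7.51, 7.46 and 7.52 in the control arrays. The groups overlapped, and the difference of -0.08 did not pass (limma adjusted p = 0.462, 95% interval -0.22 to 0.07). Its other probe set had a difference of 0.16 (adjusted p = 0.0737). Both SFRP2 probe sets also lie below the array medians, so it is not known whether SFRP2 was expressed either. DKK3, a divergent Dickkopf, had differences from -0.06 to 0.07 over its 6 probe sets and did not pass at any.

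**Figure D2:**
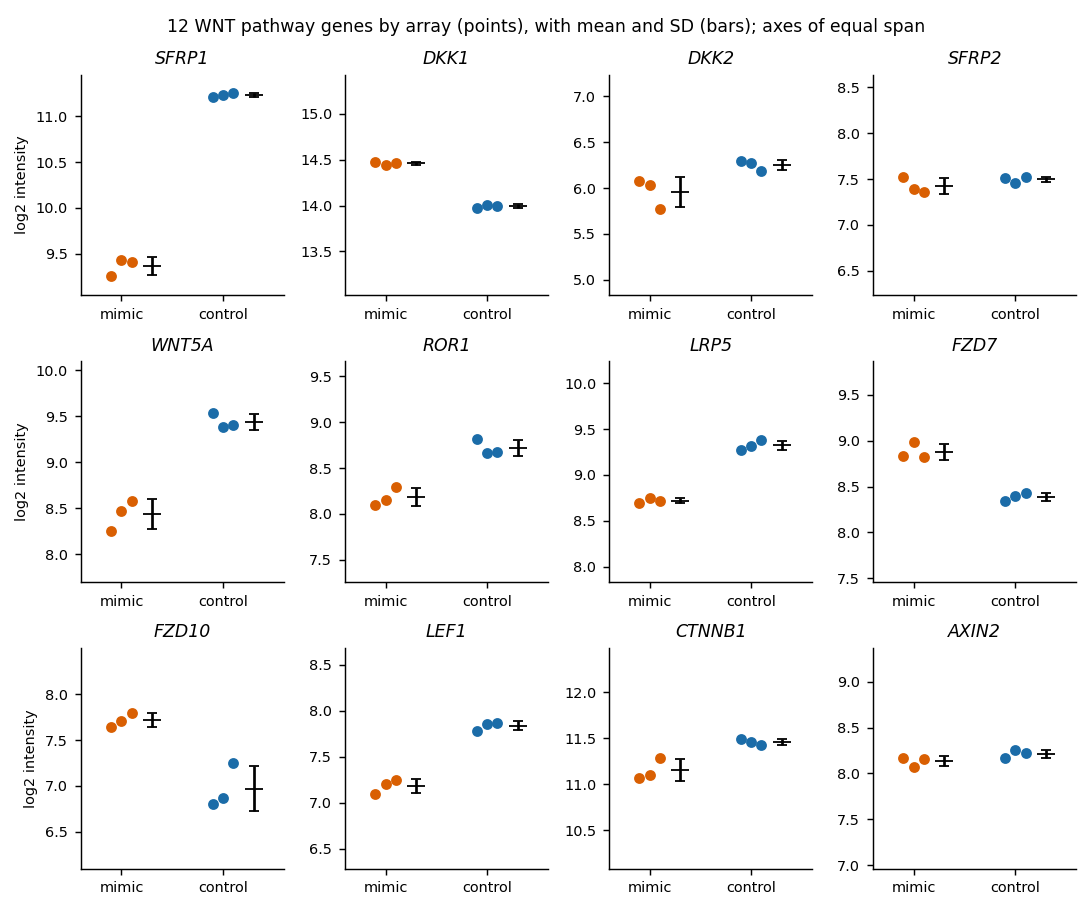
Log2 intensity of 12 pathway genes at their brightest probe set on each mimic array (left) and each control array (right), with mean and SD beside the points and axes of equal span. The groups lie apart for SFRP1, WNT5A, ROR1, LRP5, LEF1, CTNNB1 and DKK2 (mimic lower) and for DKK1, FZD7 and FZD10 (mimic higher), and overlap for SFRP2 and AXIN2.

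None of the 4 genes of receptor turnover and R-spondin sensing passed by limma; 1 of them, RNF43, had an unadjusted limma p of 0.0216. RNF43 and ZNRF3 encode ubiquitin ligases that clear Frizzled from the surface, and LGR4 and LGR5 are receptors for R-spondins, which curb those ligases. RNF43 had a log2 difference of -0.19 ± 0.07 (SE; adjusted p = 0.077), and it passed as lower without control replicate 3 (adjusted p = 0.0224). LGR5, itself a known output of the pathway, read 7.87, 7.83 and 7.80 in the mimic arrays and 7.68, 7.73 and 7.89 in the control arrays. These overlapped, with a difference of 0.06 (95% interval -0.09 to 0.22). LGR4 had a difference of -0.01 and ZNRF3 of 0.03; ZNRF3 had the widest spread of the 4 in the mimic arrays (SD 0.22).

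Of the 5 genes of the destruction complex and beta-catenin, 1 fell and 0 rose. CTNNB1, which encodes beta-catenin, read 11.06, 11.10 and 11.28 in the mimic arrays, against 11.49, 11.46 and 11.42 in the control arrays. Every mimic array was below every control array, with a log2 difference of -0.31 ± 0.07 (SE; limma adjusted p = 0.00835). CTNNB1 also fell at 1554411_at, by 0.47, while its probe set 223679_at had a difference of 0.26 (adjusted p = 0.15), and the call was lost with the 3 averaged (adjusted p = 0.117). The scaffold AXIN1 (0.18), APC (0.08) and the kinase GSK3B (-0.02) did not pass where they were read; GSK3B fell at 1 of its other 4, by 0.31 (adjusted p = 0.0205). AXIN2, a scaffold whose gene is a widely used output of beta-catenin signalling, read 8.17, 8.07 and 8.16 in the mimic arrays and 8.16, 8.25 and 8.23 in the control arrays. The groups overlapped, and the difference of -0.08 ± 0.06 (SE) did not pass (limma adjusted p = 0.396, 95% interval -0.22 to 0.06). Its other 3 probe sets had differences of 0.19, 0.13 and 0.05, none past the threshold.

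Of the 3 measured TCF and LEF genes, LEF1 fell. LEF1, a factor through which beta-catenin acts and itself a known output, read 7.09, 7.20 and 7.24 in the mimic arrays and 7.78, 7.86 and 7.87 in the control arrays. All mimic arrays were below all control arrays, and the log2 difference was -0.65 ± 0.07 (SE), 1.57-fold higher in the control (limma adjusted p = 2.26e-05). A second LEF1 probe set, 221557_s_at, fell by 0.22 (adjusted p = 0.0174), and 210948_s_at, at 0.04, did not pass. TCF7L1 (0.06) and TCF7L2 (0.03), the other factors of this family, did not pass. Of the 7 TCF7L2 probe sets, 6 had differences between -0.02 and 0.05, and 236094_at alone rose, by 0.55 ± 0.10 (SE; adjusted p = 0.00204).

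Counted without choosing 1 probe set a gene, 6 of the 91 probe sets rose (6.59%) and 22 fell (24.2%). Of all probe sets 11.6% rose and 13.1% fell, 24.8% in either direction. The 3 probe sets annotated jointly to FZD8 and MIR4683, which all rose, are not among the 91. The share of all probe sets includes such jointly annotated ones. Among the 26 genes read by several probe sets, 0 had calls in opposite directions. WNT5A, FZD2 and FZD7 were called alike at every one of theirs. Of the 15 genes called at the probe set used, 9 had another probe set that did not pass. Outside the alternatives, WNT4, FZD3, GSK3B and TCF7L2 passed only at a probe set that was not the brightest. Probe sets of a gene can bind different transcript ends or isoforms, and the differences between them were not tested.

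**Figure D3:**
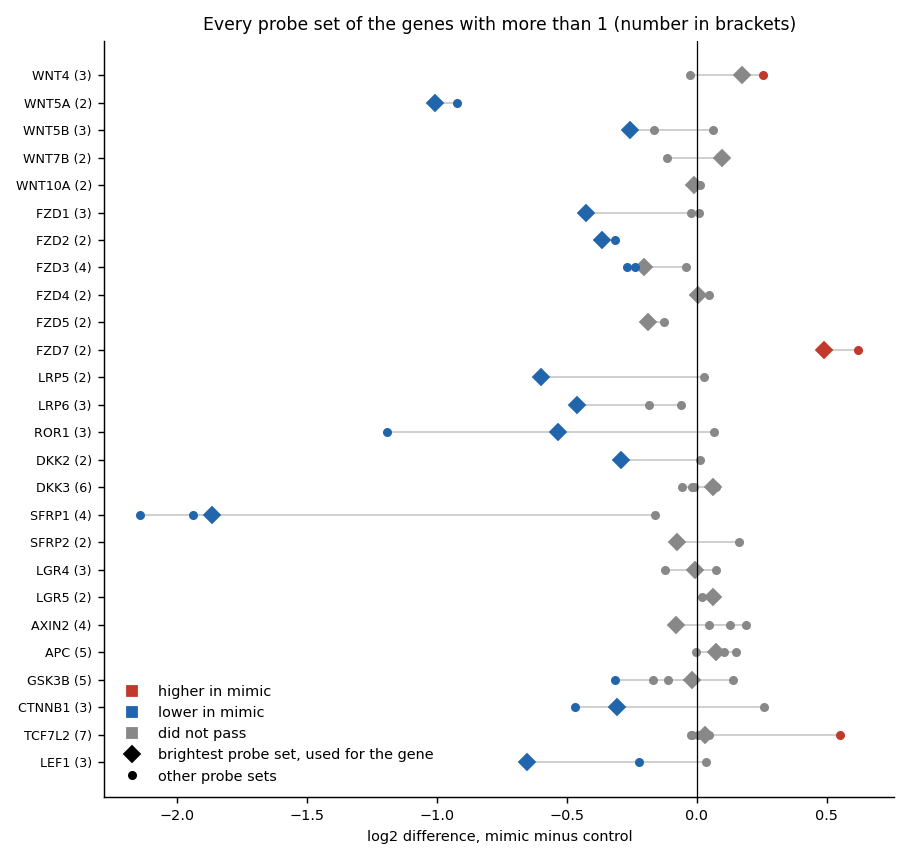
Log2 difference, mimic minus control, at every probe set of the 26 genes with more than 1, with the brightest probe set of each as a diamond and the others as circles; colour marks the call. The SFRP1 probe sets run from -2.14 to -0.16 and those of ROR1 from -1.19 to 0.07, while 6 of the 7 TCF7L2 probe sets sit near 0.

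TCF and LEF factors bind DNA at a short motif, so the start regions of the pathway genes were searched for it. The letters searched, on both strands, were CTTTG followed by AT, TT, AA or TA, in RefSeq windows from 250 bases before to 50 after each gene start (build GRCh38.p14). Of all 35116 windows, 13.8% held at least 1 match. Of the 40 genes, 26 had a window, 34 windows in all, and 3 of those genes (DKK1, TCF7 and TCF7L2) held a match. This counts genes, whereas the share of all windows is per window. Of these, TCF7 was not analysed. TCF7L2 differed by 0.03 at its brightest probe set, though it rose by 0.55 at 236094_at (limma adjusted p = 0.00204). DKK1 rose, and it was picked for display with its rise and its matches known. Whether matches go along with changes in level was not tested. Among the 34 windows searched, that of DKK1 held 2 matches, while 1.58% of all windows held 2 or more. The DKK1 window is shown on the plus strand, chr10:52314031-52314330, with the matches in capitals.
DKK1: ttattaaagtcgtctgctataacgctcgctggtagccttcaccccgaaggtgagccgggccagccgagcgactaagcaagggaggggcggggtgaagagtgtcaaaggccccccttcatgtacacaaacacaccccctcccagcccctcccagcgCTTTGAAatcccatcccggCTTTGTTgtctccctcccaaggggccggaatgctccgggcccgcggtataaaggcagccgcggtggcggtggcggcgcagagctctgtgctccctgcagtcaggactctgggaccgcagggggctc
The matches begin 95 and 76 bases before the gene start. A match describes the letters of the window and not binding.

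A wider list of 99 WNT pathway genes, taken from general knowledge but with earlier results of these data known, was read in the same fit. Of its 94 measured genes, 13 rose (13.8%) and 20 fell (21.3%), against 14.1% and 16.3% of all genes, and the median log2 difference was -0.01. Among 11 genes of ligand secretion and extracellular modification, 1 fell and 0 rose. It was WLS, the carrier that takes WNT proteins to the cell surface, which had a mean of 8.15 ± 0.12 in the mimic, against 9.14 ± 0.12 in the control. WLS fell at all 3 of its probe sets, by 0.99 at the brightest (limma adjusted p = 5.08e-06). The R-spondin genes RSPO1, RSPO2, RSPO3 and RSPO4 did not pass at their brightest probe sets; at its dimmer one RSPO2 rose by 0.61, at means of 5.12 in the mimic and 4.51 in the control. Of 11 other ligand and receptor genes, WNT2B (log2 difference 0.38) and WNT9A (0.33) rose and 0 fell.

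Of 10 further inhibitor genes, 2 fell and 0 rose. APCDD1, a membrane inhibitor of WNT signalling, read 7.25, 7.40 and 7.41 in the mimic arrays, against 9.17, 9.13 and 9.12 in the control arrays. It was 3.44-fold higher in the control (limma adjusted p = 1.27e-08), the largest fall of the wider list at the brightest probe sets, and fell at 1 of its 2. TPBG, reported in zebrafish to inhibit the beta-catenin arm, fell by 0.89 (adjusted p = 4.11e-06). Of 20 cytoplasmic transducer genes, 4 rose and 4 fell. DVL3 and DVL1, which encode Dishevelled proteins that relay the signal from Frizzled, rose by 0.75 and 0.45 (limma adjusted p = 1.01e-05 and 0.000234), and CSNK1E, a kinase of Dishevelled, rose by 0.47. CSNK1G1, a casein kinase of the same family as the LRP6 kinases, fell by 0.48.

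Of 14 nuclear cofactor genes, 3 rose and 3 fell. The corepressor gene CTBP2 fell by 0.65, at 5 of its 6 probe sets, and the kinase gene HIPK2 by 0.64, with 6 of its 10 probe sets lower and 2 higher. The co-activator gene BCL9L fell by 0.41, and the corepressor gene TLE1 rose by 0.40, at 4 of its 5 probe sets. Of 16 genes of planar polarity and the beta-catenin-independent arm, 2 rose and 5 fell, while of all genes 14.1% rose and 16.3% fell. RYK, a WNT receptor of this arm, had a mean of 10.67 ± 0.06 in the mimic, against 11.26 ± 0.06 in the control and fell at all 3 of its probe sets, by 0.59 at the brightest (limma adjusted p = 4.76e-05). The cytoplasmic polarity gene PRICKLE1 fell at 3 of its 4 probe sets, by 0.80 at the brightest and fell by 2.54 at the dimmest, while its relative PRICKLE2 rose by 0.64. The others that fell were the atypical cadherin genes CELSR1 (by 0.42) and CELSR2 (by 0.31) and the co-receptor gene PTK7 (by 0.37); CELSR2 and PTK7 are named to complete the count of 5, after their values were seen.

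Of 12 measured genes reported as beta-catenin outputs, 2 rose (16.7%) and 5 fell (41.7%), against 14.1% and 16.3% of all genes, without a test. MMP7, a matrix metalloproteinase, had a mean of 11.03 ± 0.07 in the mimic, against 9.06 ± 0.12 in the control, 3.9-fold higher in the mimic (limma adjusted p = 1.44e-08). MET, the receptor of hepatocyte growth factor, rose by 1.15, at all 4 of its probe sets. The transcription factor genes SOX9 and MYC fell, SOX9 to 9.25 ± 0.13 in the mimic, against 10.70 ± 0.14 in the control arrays, and MYC to 10.93 ± 0.06 in the mimic, against 12.33 ± 0.11 in the control. Their log2 differences were -1.44 and -1.41 (limma adjusted p = 4.62e-07 and 1.26e-07). BAMBI (-1.15), CD44 (-0.67) and FOSL1 (-0.50) also fell and are named to complete the count of 5, after their values were seen. These genes answer to other pathways too.

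**Figure D4:**
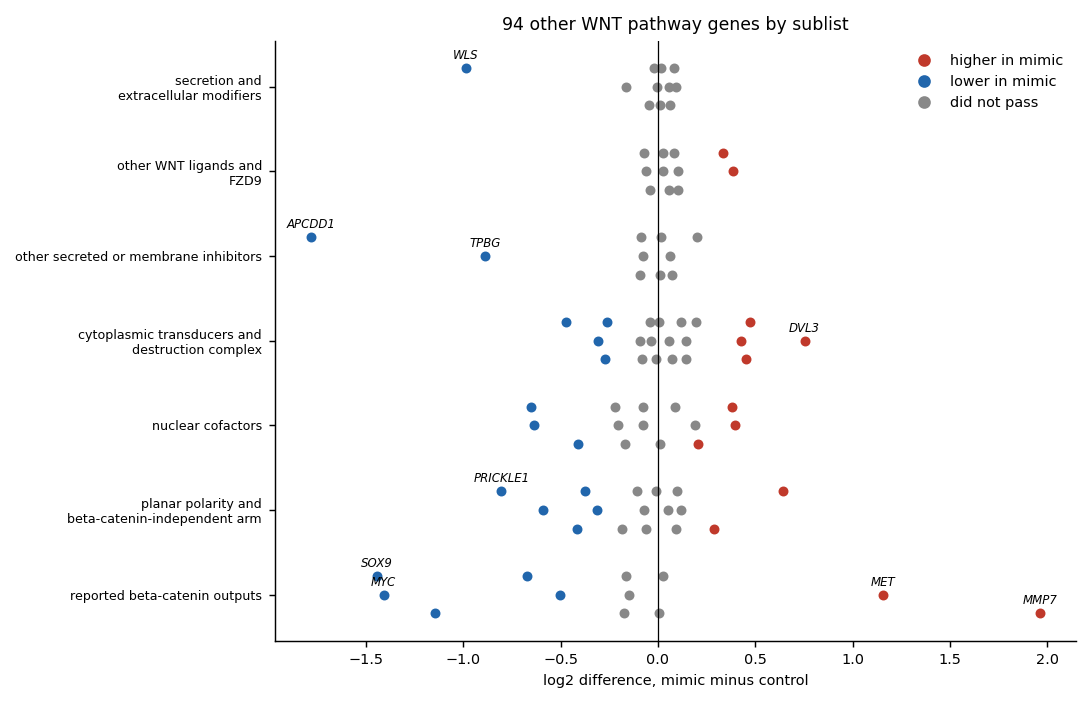
Log2 difference, mimic minus control, of the 94 other measured pathway genes at their brightest probe set, 1 row of points per sublist (the vertical offset within a row only separates points), coloured by call. APCDD1 at -1.78, SOX9 at -1.44 and MYC at -1.41 lie farthest to the left, and MMP7 at 1.96 and MET at 1.15 farthest to the right.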

How the data were processed

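RNA of 3 mimic and 3 control replicates was hybridised to 1 array each. The deposited table gives 1 log2 intensity for each probe set and array. The authors made them with RMA, which corrects background, equalises the arrays' distributions and sums up the probes, per the submitters' processing notes. The sources used here name no version. Because of that step a shift in all messenger RNA at once cannot be seen.

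Of 54675 probe sets, 62 controls were left out. By the platform's gene annotation 41091 had 1 symbol, 1801 several and 11721 none. Mimic was compared with control in limma 3.58.1 (lmFit and eBayes without trend) under R 4.3.3, two-sided, with Benjamini-Hochberg adjustment over all 54613 probe sets and a threshold of 0.05. Suffixes s_at and x_at mark probe sets that can bind several transcripts. Intervals are limma's 95% intervals. The fit was tested on simulated data. The members and lists were chosen with earlier results of these data known. Values by array are given for members past the threshold with a log2 difference of at least 0.5, and for DKK2, SFRP2, AXIN2, LGR5, LEF1 and CTNNB1; up to 4 called genes of each wider sublist are named. Alternatives covered scaling, variance model, array weights, replicate block, dim probe sets, thresholds, single arrays left out and the probe set rule. Figures used matplotlib 3.10.9. The number of arrays limits the precision.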

Additional observations from a re-analysis of the deposited data

How the results depend on the processing

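Leaving out 1 array gave 3 pathway genes higher in each case and 10 to 12 lower. Requiring a 1.5-fold change as well, which by construction passes fewer, left 1 pathway gene higher and 4 lower. It left 2 probe sets higher and 8 lower, and 4 of the wider list higher and 11 lower. The shares of all genes and probe sets at this limit were not computed. With array weights 5 pathway genes were higher and 15 lower, and 10 probe sets were higher and 28 lower. The cause was not tested, and the shares of all genes with array weights were not computed. With the replicate number as a block, 3 pathway genes were higher and 12 lower. The labels do not say whether same-numbered arrays were made together. Deviations of same-numbered arrays correlated with r = -0.11, 0.08 and 0.08, and not every array correlated best with its own number. With 3 arrays in each group, these values cannot decide whether the numbers mark pairs. Of 572 values of the 36 genes under alternatives, 504 kept direction and side of the threshold, 23 lost and 15 gained a call, and 30 changed sign. No gene that was called changed sign; the 13 that did so had log2 differences of at most 0.10. WNT5A, FZD10, LRP5, SFRP1 and LEF1 kept their call and direction under all 16 alternatives. FZD1, FZD2, FZD6, FZD7, LRP6, ROR1 and DKK1 lost theirs only at the 1.5-fold limit, which a smaller difference cannot pass.

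The values that changed sign, none past the threshold, were these. With array weights they were WNT7A (-0.0089), FZD4 (-0.041) and GSK3B (0.020), after quantile normalization LGR4 (0.054) and GSK3B (0.053), and with arrays centred on their medians FZD4 (-0.023). With all probe sets averaged they were WNT7B (-0.0075), SFRP2 (0.043) and AXIN2 (0.072). With probe sets without the suffixes x_at and s_at preferred they were WNT7B (-0.11), WNT10A (0.011), LGR4 (0.075), AXIN2 (0.048) and APC (-0.0026). With 1 array left out, the values ran from -0.0085 to 0.070 for WNT7A, from -0.050 to 0.021 for WNT10A, from -0.013 to 0.10 for WNT11, from -0.027 to 0.053 for FZD4, from -0.051 to 0.16 for ZNRF3, from -0.046 to 0.024 for LGR4, from -0.051 to 0.030 for GSK3B, from -0.015 to 0.10 for TCF7L1 and from -0.042 to 0.094 for TCF7L2. No detection calls were used, so whether dim genes such as DKK2, SFRP2, WNT5B and ROR2 lie above background is not known.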
